A study of Mus musculus with 27 samples.

Results

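Primary mouse hepatocytes kept in an ethanol vehicle were set against the microglia and the bone marrow-derived macrophages (BMDM) that received the same vehicle, with the emphasis on lipid, sterol-sensing and liver genes. The members were the 9 vehicle libraries of the 27 in the series, chosen by their labels alone, with 3 libraries each of hepatocytes, microglia and BMDM. Microglia are the resident macrophages of the brain, and here they were shaken loose from mixed glial cultures grown in an astrocyte medium with serum. BMDM were grown out of bone marrow in a medium with serum and M-CSF, the growth factor that macrophages depend on. Hepatocytes were plated on collagen with serum and moved to Williams' E medium after some hours. All cells then spent 24 h without serum. Microglia and BMDM had DMEM/F12 with pyruvate, fatty-acid-free albumin, an insulin, transferrin and selenite supplement and 25 ng/ml M-CSF, whereas hepatocytes had Williams' E medium without these additions. Cell type and treatment medium therefore cannot be told apart in either comparison. No strain, age or sex of the mice is given in the labels, and nothing says whether a group's 3 libraries stem from different animals or dishes. The p-values thus measure the spread between these libraries, which may be technical.

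Hepatocytes secrete most plasma proteins and lipoproteins, make bile acids from cholesterol and oxidise or export fatty acids. Macrophages take up lipoproteins and dying cells, hydrolyse their lipid in lysosomes and pass the cholesterol on to outside acceptors. Both kinds of cell sense sterols through the liver X receptors (LXR), nuclear receptors that bind oxidised sterols and pair with RXR, and through the SREBP proteins, transcription factors held in the endoplasmic reticulum by SCAP and the INSIG proteins when sterol is plentiful.

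The 9 libraries held between 33780479 and 40971340 counts in genes, and a count of 0 allows up to 0.0732 to 0.0888 CPM (the usual counts scaled to a fixed library total), a floor of 3 counts that covers counting error only. Replicates differed by more than sampling noise, with a chi-square per degree of freedom between 4.502 and 11.53, and none was a copy of another. The labelled cell types were read from marker lists, summed as CPM on plain library totals. The 14 hepatocyte markers summed to 31400 to 33503 CPM in hepatocytes, 1403 to 1426 CPM in microglia and 1424 to 1602 CPM in BMDM. Nearly all of the macrophages' sum was Trf, the transferrin gene, since without it the other 13 markers summed to 13296 to 13464 CPM in hepatocytes and to at most 1.60 CPM in any macrophage library. The 14 macrophage markers summed to 46190 to 47888 CPM in microglia, 41937 to 43939 CPM in BMDM and 374 to 400.2 CPM in hepatocytes. Most of the hepatocytes' sum was Cd68, a lysosomal membrane protein gene. Without it the other 13 summed to 35.9 to 43.7 CPM, and Csf1r, the M-CSF receptor, stood at 0.339 ± 0.205 TPM (the deposited level per transcript length; SD, n = 3) in hepatocytes. In these bulk samples a few macrophages among hepatocytes and a low level in every hepatocyte cannot be told apart. Clec4f, a marker of Kupffer cells, was counted 16, 23 and 49 times in the hepatocyte libraries and never in the others, while Timd4, another, was at 0 in all 3 hepatocyte libraries. The homeostatic microglia markers P2ry12 and Tmem119 stood at 13.2 ± 1.48 and 5.36 ± 0.764 TPM in microglia and at 6.14 ± 0.741 and 0.943 ± 0.117 TPM in BMDM. Cholangiocyte and progenitor markers other than Spp1 summed to 206 to 216 CPM in hepatocytes and at most 2.72 CPM in the other cells, mostly through Sox9. Oligodendrocyte markers other than Mbp summed to 30.6 to 34.1 CPM in microglia, and lymphocyte markers were at 0 in a library of hepatocytes and one of microglia. The part that other cell types in the cultures play in the differences below was not tested.

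**Figure D1:**
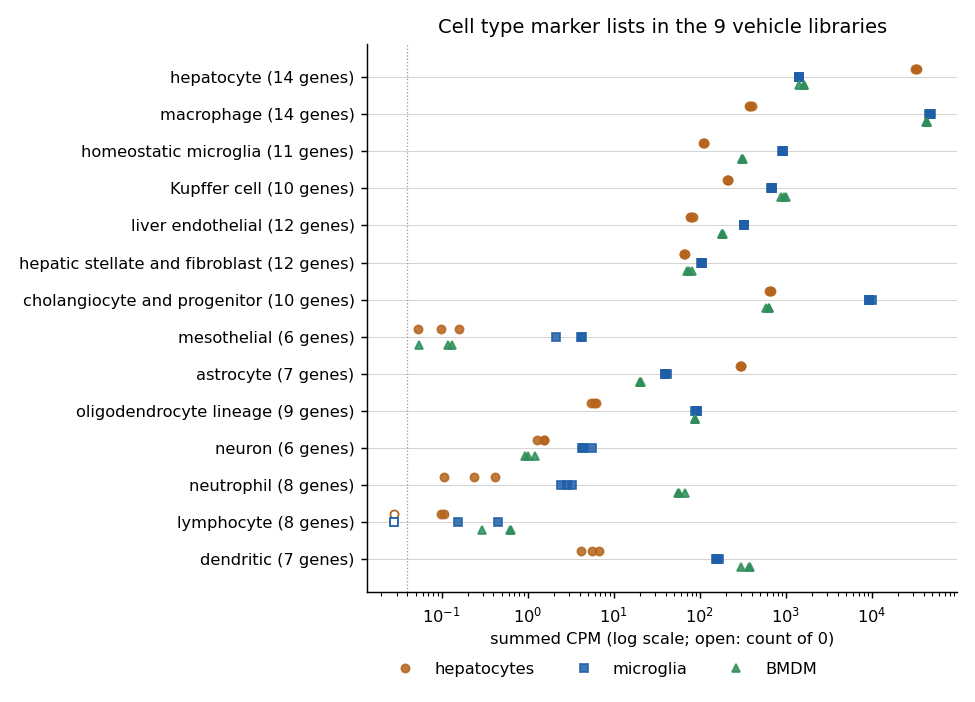
Summed CPM of each marker list (log axis, plain library totals) in the 9 vehicle libraries, 1 symbol per library, with open symbols for a count of 0. The hepatocyte list lies at 31400 to 33503 CPM in hepatocytes, and the macrophage list at 41937 to 47888 CPM in microglia and BMDM against 374 to 400.2 CPM in hepatocytes; the macrophages' 1403 to 1602 CPM on the hepatocyte list is nearly all Trf, and the microglial value of the cholangiocyte list is nearly all Spp1.

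Quasi-likelihood tests in edgeR covered 17466 genes in 1 fit of the 9 libraries, and genes with an adjusted p under 0.05 were called. Against microglia 13319 genes were called, 76.3% of those tested, with 6577 higher in hepatocytes (37.7%) and 6742 lower (38.6%). Against BMDM 13638 genes were called, 78.1%, with 6789 higher (38.9%) and 6849 lower (39.2%). Because most genes passed, a second rule that also asks for at least a 4-fold difference is used for the gene lists. By that rule 2221 genes were higher than in microglia (12.7%) and 2852 lower (16.3%), 29.0% in all. Against BMDM 2582 were higher (14.8%) and 2815 lower (16.1%), 30.9% in all. These shares over all genes are the background for every list count below. The median log2 difference over all genes tested was -0.03 against microglia and -0.01 against BMDM. On plain library totals in place of TMM scaling these medians were 0.36 and 0.39, and the share of called genes that were higher went from 49.4% to 63.0% against microglia and from 49.8% to 63.1% against BMDM. For a part of the named genes, differences under that shift are given below with the scaling that turns them. The comparisons share the 3 hepatocyte libraries, so their values stand side by side and do not support each other. CPM values of single genes below are on TMM-scaled library sizes, log2 differences are hepatocytes minus the other cells with a standard error (SE), and TPM, which is per transcript length, is used where 1 gene is set against another.

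**Figure D2:**
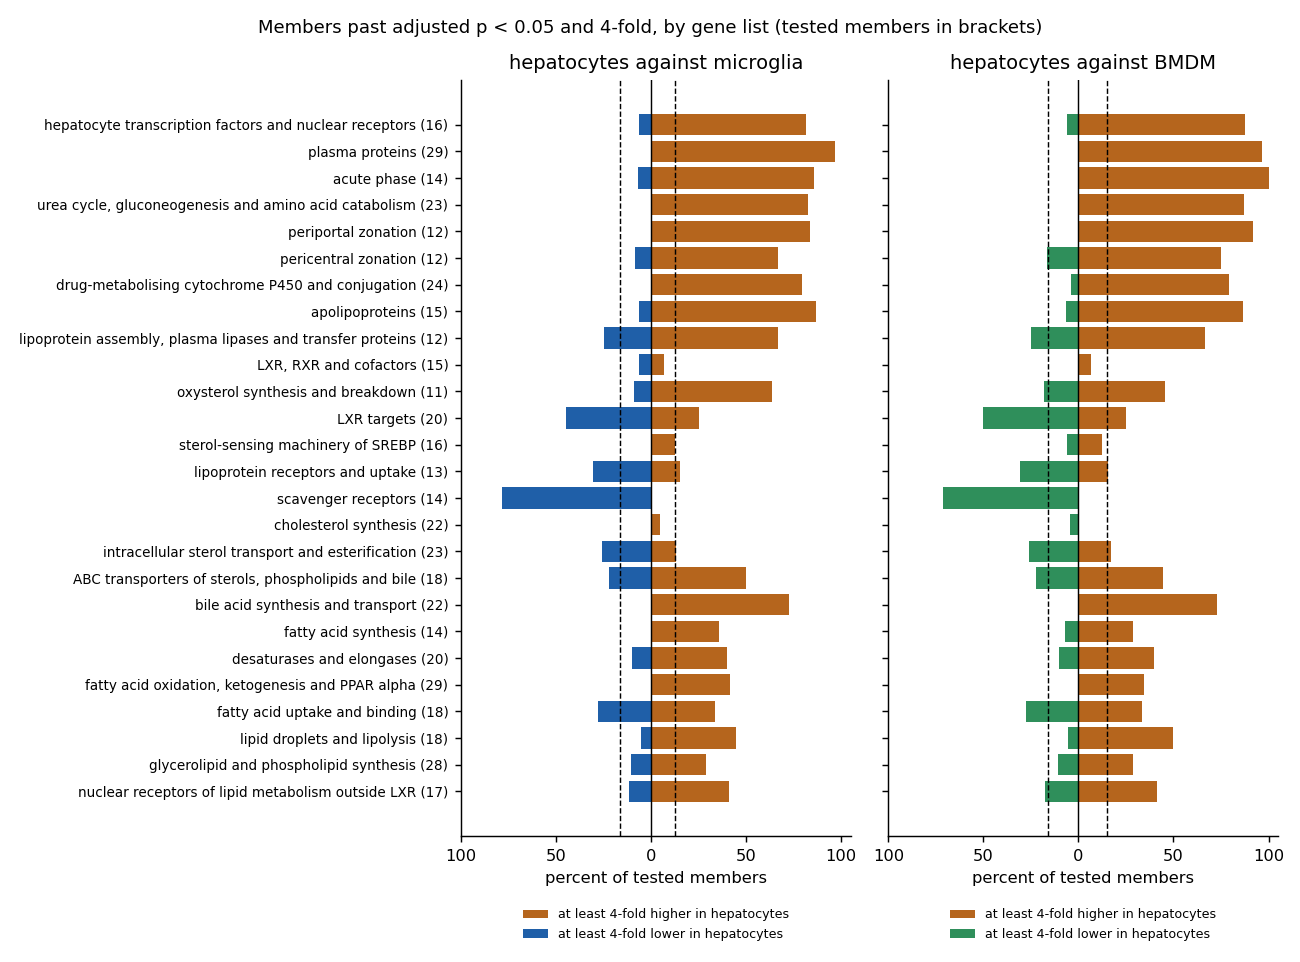
Percent of the tested members of each gene list that passed an adjusted p under 0.05 and at least a 4-fold difference, higher in hepatocytes to the right and lower to the left, for each comparison. Dashed lines mark the same percent over all 17466 genes (12.7% and 16.3% against microglia, 14.8% and 16.1% against BMDM). Liver lists reach far past the line on the right, scavenger receptors past the line on the left and LXR targets past both. Cholesterol synthesis and the SREBP machinery stay inside or near both lines.

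Most genes that define liver tissue were high in hepatocytes and at or near a count of 0 in both macrophages. Trf was an exception, since it made up nearly all of the macrophages' sum on the hepatocyte marker list. Alb, the gene of serum albumin (ENSMUSG00000029368; chromosome 5, 90460897 to 90476602), was counted 280859, 258428 and 253871 times in the hepatocyte libraries. In microglia it was counted 0, 3 and 2 times, and in BMDM 0, 0 and 1 times. Every hepatocyte library thus lay far above every macrophage library. Apoa1, the main protein of high-density lipoprotein (chromosome 9, 46228580 to 46230466), stood at 854, 785 and 816 CPM in hepatocytes and was not counted in any macrophage library, which makes it at least 9779-fold higher than in microglia and 8857-fold higher than in BMDM. Of 30 plasma protein genes 29 were tested, and 28 were at least 4-fold higher in each comparison (median log2 difference 13.83 and 14.95, or 11.99 and 11.42 with genes absent from macrophages at their bound). A1bg was not tested. F10, the gene of coagulation factor X, did not follow the list, with 65.6, 58.7 and 65.1 CPM in hepatocytes, 33.7, 34.9 and 36.8 CPM in microglia and 135, 127 and 156 CPM in BMDM. It was above microglia and below BMDM (0.85 ± 0.07 and -1.15 ± 0.07, SE; edgeR adjusted p = 4.6e-10 and 8.7e-13). On the TPM scale the most abundant of these genes in hepatocytes were Trf (16227 ± 690.3 TPM), Alb (8252 ± 40.8 TPM) and Hpx (8211 ± 371 TPM), which encodes the haem carrier hemopexin.

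Most transcription factors of the hepatocyte programme were higher in hepatocytes, with Cebpa on the other side. Of 17 hepatocyte transcription factor and nuclear receptor genes 16 were tested, and 13 were at least 4-fold higher than in microglia and 14 than in BMDM, with medians of 7.20 and 6.98 (7.03 and 6.59 with bounds). Hnf4a, the master regulator of hepatocyte genes (ENSMUSG00000017950; chromosome 2, 163506808 to 163572910), stood at 259.7, 235 and 241 CPM in hepatocytes, 0.0792, 0 and 0 CPM in microglia and 0, 0.0326 and 1.67 CPM in BMDM. The groups lay far apart, 1 BMDM library held most of that group's counts, and the difference to BMDM was 8.78 ± 0.52 (edgeR adjusted p = 3.4e-06). Foxa3, a forkhead factor, was the most abundant of the list at 302 ± 14.4 TPM, ahead of Creb3l3 (194 ± 16.3 TPM) and Hnf4a (172 ± 6.31 TPM). Foxa2 was counted 1466, 1206 and 1197 times in hepatocytes and never in the macrophages. Cebpa, a factor of both liver and myeloid cells (chromosome 7, 35119293 to 35121928), went the other way, with 20.3, 19.2 and 23 CPM in hepatocytes against 81.3, 93.1 and 90.2 CPM in microglia and 152, 160.1 and 158 CPM in BMDM (-2.08 ± 0.07 and -2.91 ± 0.07; edgeR adjusted p = 6.4e-18 and 1.1e-20). Tcf7l2, the transcription factor of the Wnt pathway, had log2 differences of -0.27 and -0.49, the first of which turned to 0.12 on plain library totals, where the second was -0.08 and not called. Some liver factors had low counts in the hepatocytes themselves. Nr1i3, the constitutive androstane receptor, was counted 4, 8 and 0 times and was not tested, and 75% of its exons overlap Tomm40l. Onecut1, with 53% of its exons under another gene model, stood at 0.373 ± 0.142 TPM and Nr0b2, the bile acid-induced repressor SHP, at 1.27 ± 0.169 TPM. The overlaps leave the levels of Nr1i3 and Onecut1 uncertain.

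Acute phase genes, which liver turns on in inflammation, were high in the vehicle hepatocytes. Of 14 such genes 12 were at least 4-fold higher than in microglia and 14 than in BMDM (medians 10.02 and 10.31, or 7.95 and 8.18 with bounds). Hp, the gene of haptoglobin, stood at 1039, 799.6 and 954 CPM in hepatocytes, 8.08, 8.77 and 8.28 CPM in microglia and 5.51, 2.25 and 4.7 CPM in BMDM. Saa1 stood at 328 ± 9.78 CPM in hepatocytes and 1.8 ± 0.0598 CPM in microglia, and Itih4, a protease inhibitor, at 452 ± 5.84 CPM against counts of 2, 0 and 1 and 0, 0 and 1 in the macrophages. Saa3, a serum amyloid gene that macrophages also make, split between the macrophages. It stood at 42.4, 38.4 and 37.3 CPM in hepatocytes, 361, 406 and 392 CPM in microglia and 12.7, 0.489 and 5.42 CPM in BMDM, below the first and above the second (-3.29 ± 0.50 and 2.62 ± 0.60; edgeR adjusted p = 0.00082 and 0.0062).

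Most genes of liver metabolism followed the same direction with marked differences in level. Of 23 genes of the urea cycle, gluconeogenesis and amino acid catabolism 19 were at least 4-fold higher than in microglia and 20 than in BMDM (medians 7.21 and 7.02, or 6.33 and 6.69 with bounds). Cps1, which starts the urea cycle in liver, stood at 10.3, 11.3 and 10.7 CPM and Otc, the next enzyme, at 14.8, 15.3 and 13.7 CPM in hepatocytes. Per transcript length they were modest, at 6.59 ± 0.403 and 11.7 ± 0.695 TPM, as were Pck1 (2.83 ± 0.581 TPM) and G6pc (0.719 ± 0.113 TPM), enzymes of gluconeogenesis, while Tdo2, which degrades tryptophan, reached 899 ± 71.5 TPM. Hpd, of tyrosine breakdown, stood at 24.3 ± 1.37 CPM, with at most 1 count in all in either macrophage. Ass1, which joins citrulline to aspartate, stood at 81.5, 71.4 and 73.9 CPM in hepatocytes, 120.1, 132 and 145 CPM in microglia and 10.6, 7.63 and 14.7 CPM in BMDM. Hepatocytes were thus below microglia and above BMDM (-0.81 ± 0.16 and 2.78 ± 0.19; edgeR adjusted p = 0.0016 and 8.7e-07). Hal, which degrades histidine, had the same order at 105 ± 10.4, 273 ± 4.82 and 30.01 ± 3.48 CPM (-1.37 ± 0.07 and 1.81 ± 0.08; edgeR adjusted p = 7.9e-14 and 1.5e-15).

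Markers of both poles of the liver lobule were present. Cyp2f2, a periportal cytochrome, stood at 312 ± 9.2 TPM, and the pericentral Cyp2e1 and Cyp1a2 at 190.2 ± 20.7 and 63.2 ± 0.809 TPM. Of 12 periportal genes 10 were at least 4-fold higher than in microglia and 11 than in BMDM, and of 12 tested pericentral genes 8 and 9. The pericentral enzymes Glul and Oat lay on the other side. Glul, glutamine synthetase, stood at 15.4, 14.1 and 14.3 CPM in hepatocytes, 52.7, 52.4 and 55.7 CPM in microglia and 72.3, 83.4 and 86.1 CPM in BMDM (-1.88 ± 0.08 and -2.47 ± 0.08; edgeR adjusted p = 2.3e-16 and 1.1e-18). Oat, ornithine aminotransferase, stood at 22 ± 2.38, 104 ± 2.09 and 131 ± 2.62 CPM (-2.25 ± 0.07 and -2.58 ± 0.07; edgeR adjusted p = 7.5e-19 and 5.6e-20). Lgr5, a Wnt receptor of the cells around the central vein, was counted 0, 0 and 2 times in hepatocytes and was not tested.

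Drug-metabolising genes were mostly higher in hepatocytes, and 19 of 24 were at least 4-fold higher in each comparison (medians 9.33 and 9.50, or 8.38 and 8.16 with bounds). Cyp3a11, the main xenobiotic cytochrome (ENSMUSG00000056035; chromosome 5, 145854426 to 145879964), stood at 451, 498 and 492 CPM in hepatocytes and was at 0 in all 6 macrophage libraries, at least 5743-fold and 5202-fold lower there. Cyp2c70, which makes muricholic acid in mice, stood at 24.4, 25.7 and 27.7 CPM in hepatocytes and was also at 0 in the others. Both belong to families of near-identical copies, and how reads that match several genes were counted is not given in the sources used here. Por, the reductase that feeds electrons to all these cytochromes, was lower in hepatocytes, at 197, 173 and 193 CPM against 504, 524 and 554 CPM in microglia and 497, 582 and 604 CPM in BMDM (-1.49 ± 0.07 and -1.58 ± 0.07; edgeR adjusted p = 4.8e-15 and 1.5e-15). Sult1a1, a sulfotransferase, was also lower (-0.89 ± 0.21 and -2.24 ± 0.20; edgeR adjusted p = 0.00045 and 4.1e-10).

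Promoter sequences were read for the 327 of 441 genes on the lipid and liver lists that matched RefSeq's table by symbol (build GRCm38.p6, the 250 bases before each start). The motif CAAAGTCCA, a form of the element that HNF4A binds, was searched on both strands and stood in 0.384% of all 32851 promoter windows. Among the list genes 3 held it, Cyp8b1, Cyp3a11 and Cyp2c70, and each was at a count of 0 in every macrophage library. Many genes of the liver lists were at or near 0 in macrophages, and whether the motif goes with such counts was not tested. The promoters of Cyp8b1, of bile acid synthesis, and Cyp2c70 are shown as examples of genes counted in hepatocytes alone whose promoter carries letters known for the factor encoded by Hnf4a. They are written 5′ to 3′ with the motif in capitals, and 58 and 55 bases lie between it and the start.
Cyp8b1, chr9:121916306-121916555, minus strand: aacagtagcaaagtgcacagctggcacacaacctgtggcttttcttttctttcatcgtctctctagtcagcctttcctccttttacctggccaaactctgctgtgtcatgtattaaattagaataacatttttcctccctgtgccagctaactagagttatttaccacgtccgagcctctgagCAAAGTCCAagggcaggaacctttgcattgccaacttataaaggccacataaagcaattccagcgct
Cyp2c70, chr19:40187287-40187536, minus strand: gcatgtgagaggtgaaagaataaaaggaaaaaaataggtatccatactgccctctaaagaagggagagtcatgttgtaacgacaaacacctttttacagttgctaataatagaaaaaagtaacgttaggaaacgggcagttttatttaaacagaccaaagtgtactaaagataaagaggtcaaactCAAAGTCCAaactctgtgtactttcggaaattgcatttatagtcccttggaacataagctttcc
A match is a run of letters and not a measured binding site, and the other matched list genes did not hold these letters in the window.

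Apolipoprotein genes, whose products carry lipid in plasma, were mostly higher in hepatocytes, with Apoe and the editing enzyme gene Apobec1 on the macrophage side. Of 17 genes 15 were tested, and 13 were at least 4-fold higher in each comparison (medians 12.06 and 12.86, or 11.50 and 11.03 with bounds). Apob, the scaffold of very-low-density lipoprotein (chromosome 12, 7977648 to 8016835), stood at 899.7, 963 and 940.4 CPM in hepatocytes and was counted 0, 1 and 1 times in microglia and 1, 1 and 0 times in BMDM. Apoc1 stood at 507, 511 and 537 CPM in hepatocytes, 7.84, 9.03 and 8.92 CPM in microglia and 0.819, 0.881 and 0.883 CPM in BMDM (5.92 ± 0.07 and 9.23 ± 0.09; edgeR adjusted p = 1e-26 and 8e-28). Apoe, which carries lipid in both plasma and brain (ENSMUSG00000002985; chromosome 7, 19696109 to 19699188), stood at 5726, 5039 and 5479 CPM in hepatocytes. It was higher in the macrophages, with 8979, 9712 and 9603 CPM in microglia and 16217, 17583 and 17746 CPM in BMDM, and the groups did not overlap (-0.8 ± 0.06 and -1.67 ± 0.06; edgeR adjusted p = 4.8e-12 and 4.7e-18). Apobec1, the enzyme that edits Apob mRNA, was also lower in hepatocytes, at 54.7 ± 3.18 CPM against 861 ± 39.8 and 881 ± 33.5 CPM (-3.98 ± 0.06 and -4.01 ± 0.06). Apoc3, an inhibitor of lipoprotein clearance, stood at 325 ± 8.34 CPM and Apoh at 358 ± 3.82 CPM in hepatocytes. Per transcript length the most abundant in hepatocytes were Apoa2 (11830 ± 231 TPM), Apoe (8582 ± 434 TPM) and Clu (8126 ± 108 TPM). Apoc2, the cofactor of lipoprotein lipase, was counted 2, 2 and 2 times in hepatocytes and was not tested, and 79% of its exons overlap the gene model Gm44805.

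Genes that assemble and remodel lipoproteins showed the same division. Mttp, which loads lipid onto Apob, stood at 78.8, 78.3 and 80.1 CPM in hepatocytes, 1.69, 1.75 and 1.89 CPM in microglia and 2.54, 2.64 and 2.36 CPM in BMDM (5.48 ± 0.10 and 4.97 ± 0.09; edgeR adjusted p = 2.5e-23 and 7.4e-23). Lcat, which esterifies cholesterol in plasma, and Lipc, hepatic lipase, were higher as well, with Lipc at 49.9 ± 2.45, 0.282 ± 0.199 and 0.0891 ± 0.085 CPM in hepatocytes, microglia and BMDM. Angptl4, an inhibitor of lipoprotein lipase, was higher too (5.95 and 4.45). Tm6sf2, which acts in lipoprotein secretion, stood at 4.0 ± 0.678 CPM in hepatocytes. Lpl, lipoprotein lipase itself (ENSMUSG00000015568; chromosome 8, 68880491 to 68907448), was reversed, with 1.77, 1.95 and 2.45 CPM in hepatocytes against 5175, 5306 and 5199 CPM in microglia and 8119, 8472 and 8641 CPM in BMDM (-11.31 ± 0.09 and -12.0 ± 0.09; edgeR adjusted p = 2.7e-29 and 1.4e-29). Pltp, the phospholipid transfer protein, stood at 12.2 ± 0.589, 162 ± 6.33 and 615 ± 52.4 CPM, and Sort1, a sorting receptor, at 2.56 ± 0.282, 80.05 ± 3.72 and 404 ± 54 CPM. Of 12 tested genes 8 were at least 4-fold higher and these 3, Lpl, Pltp and Sort1, at least 4-fold lower in each comparison. Lipg and Gpihbp1 were not tested.

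The receptors that sense oxysterols differed by less than 4-fold. Nr1h2, LXR beta (ENSMUSG00000060601; chromosome 7, 44549616 to 44553951), stood at 123, 107 and 119 CPM in hepatocytes, 128, 130 and 129 CPM in microglia and 133, 137 and 138 CPM in BMDM. Hepatocytes lay below both by a small step. The log2 difference was -0.15 ± 0.06 and -0.23 ± 0.06 (edgeR adjusted p = 0.019 and 0.00099), which turned to 0.24 and 0.19 on plain library totals. The call against microglia was lost without hepatocyte replicate 2 (adjusted p = 0.16) or microglia replicate 2 (adjusted p = 0.076), with RLE size factors (0.078), by DESeq2 (0.072) and without a filter on low counts (0.16). Nr1h3, LXR alpha (ENSMUSG00000002108; chromosome 2, 91184061 to 91202834), took a middle place with 50.3, 48.5 and 47 CPM in hepatocytes, above 21.5, 24.6 and 21.5 CPM in microglia and below 119, 109 and 119.6 CPM in BMDM. The 3 groups did not overlap (1.11 ± 0.07 and -1.25 ± 0.07; edgeR adjusted p = 9e-13 and 2.9e-14). Within a library, log2 of Nr1h3 over Nr1h2 in TPM was -0.87, -0.72 and -0.93 in hepatocytes, -2.16, -1.99 and -2.18 in microglia and 0.25, 0.08 and 0.21 in BMDM. Rxra, the main RXR of liver, stood at 99.7 ± 5.99, 115 ± 2.42 and 107 ± 9.97 CPM, close in all cells. Rxrg was the odd member, at 2.67, 2.28 and 1.99 CPM in hepatocytes and counted 0, 7 and 0 times in microglia and 1, 0 and 0 times in BMDM. Of the 15 LXR, RXR and cofactor genes it was the only one at least 4-fold higher, 6.67% against a background of 12.7% and 14.8%. Tbl1xr1, a subunit of the corepressor complex, was lower (-2.06 ± 0.08 and -1.87 ± 0.08), and its 4-fold call against microglia was lost on plain library totals and without microglia replicate 1.

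Enzymes that make and break down oxysterols, the ligands of LXR, included several that differed by over 4-fold. Ch25h, which makes an oxysterol in activated macrophages (chromosome 19, 34473778 to 34475164), stood at 0.0411, 0.0438 and 0 CPM in hepatocytes, 9.56, 10.01 and 9.99 CPM in microglia and 0.593, 0.261 and 9.24 CPM in BMDM (-8.27 ± 1.88 and -6.71 ± 2.10; edgeR adjusted p = 0.0061 and 0.023). Most of the BMDM value came from 1 library, and the call against BMDM was lost when any 1 hepatocyte library was left out (adjusted p = 0.068 to 0.071), by limma-voom (0.089) and by limma on log2(TPM + 1) (0.051). Cyp27a1, the mitochondrial sterol hydroxylase, stood at 49.5, 44.9 and 46.1 CPM in hepatocytes, 13.5, 16.6 and 16.2 CPM in microglia and 44.4, 42.9 and 48.6 CPM in BMDM. It was higher than in microglia (1.6 ± 0.08; edgeR adjusted p = 3.2e-14), and the difference to BMDM was 0.05 ± 0.08 (edgeR adjusted p = 0.6, or 0.46 and called on plain library totals). Cyp7b1, which clears oxysterols towards bile acids, stood at 12.5, 10.7 and 11.8 CPM in hepatocytes and at 0 in all 6 macrophage libraries, at least 139-fold and 126-fold lower there. Hsd11b1, which interconverts steroids and oxysterols, stood at 255 ± 4.79 CPM in hepatocytes against 0.21 ± 0.183 and 0.363 ± 0.158 CPM, and Ephx2, an epoxide hydrolase, at 124 ± 4.11 against 0.196 ± 0.247 and 0.304 ± 0.217 CPM. Of 12 genes 11 were tested, and 7 were at least 4-fold higher than in microglia and 5 than in BMDM. Cyp46a1, a sterol hydroxylase best known from neurons, stood at 1.4 ± 0.201, 0.241 ± 0.0862 and 0.0217 ± 0.0377 CPM. Hsd3b7 was not counted in any hepatocyte library, and 99% of its exons overlap other gene models, so that this count is no measure of its level.

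LXR targets split into a smaller set higher in hepatocytes and a larger set higher in macrophages. Of 21 targets 20 were tested. Against microglia 5 were at least 4-fold higher and 9 lower, and against BMDM 5 were higher and 10 lower, under every scaling tried. Over all genes 12.7% and 14.8% were higher by this rule and 16.3% and 16.1% lower, less than the shares here on both sides. The list was chosen with earlier results of these data known, so this describes its members and is not a test of LXR targets. The median log2 difference was -1.05 and -2.35, against -0.03 and -0.01 over all genes. Abca1, which loads cholesterol onto apolipoprotein A-I (ENSMUSG00000015243; chromosome 4, 53030787 to 53159895), stood at 46.8, 52.7 and 53.5 CPM in hepatocytes, 776, 758 and 746 CPM in microglia and 546, 627 and 666 CPM in BMDM. That is 14.9-fold and 12-fold lower (-3.9 ± 0.07 and -3.59 ± 0.07; edgeR adjusted p = 2.7e-22 and 9.3e-22). Abcg1, its partner that delivers cholesterol to mature lipoprotein (ENSMUSG00000024030; chromosome 17, 31057675 to 31117988), was nearly absent from hepatocytes. It was counted 6, 4 and 6 times there against 13299, 13192 and 12849 times in microglia and 15391, 13540 and 13447 times in BMDM (-11.59 ± 0.11 and -11.84 ± 0.11; edgeR adjusted p = 2e-28 and 2e-28). Mylip, a ubiquitin ligase that lowers lipoprotein uptake, was counted 2, 6 and 3 times in hepatocytes and stood at 49.3, 51.9 and 48.8 CPM in microglia and 84, 85.2 and 86.3 CPM in BMDM. Mertk, which engulfs dying cells, Smpdl3a, a lipid phosphodiesterase, and Arl4c, a small GTPase, were also lower, with Mertk at 2.22 ± 0.35, 158 ± 2.38 and 173 ± 14.4 CPM. Lpl, Pltp and Scd2, described under their own functions, complete the lower set. Cd5l, a secreted macrophage protein, was lower as well, with log2 differences of -1.3 ± 0.19 and -6.55 ± 0.14.

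On the hepatocyte side stood Scd1, Apoc1, Mlxipl and the half-transporters Abcg5 and Abcg8. Scd1, the main stearoyl-CoA desaturase of liver (ENSMUSG00000037071; chromosome 19, 44394455 to 44407879), stood at 749, 763 and 818 CPM in hepatocytes, 5.73, 5.47 and 6.13 CPM in microglia and 23.7, 17.2 and 24.3 CPM in BMDM (7.07 ± 0.11 and 5.16 ± 0.10; edgeR adjusted p = 6.9e-21 and 1.2e-19). Mlxipl, the carbohydrate-sensing factor ChREBP, stood at 20.7, 20.6 and 19.1 CPM in hepatocytes and 0.475, 0.169 and 0.349 CPM in microglia. Abcg5 and Abcg8, which together pump sterols into bile, were low in hepatocytes but counted there alone. Abcg5 was counted 59, 89 and 61 times in the hepatocyte libraries and Abcg8 118, 81 and 109 times, with a count of 0 for both in all 6 macrophage libraries. Abcg5 was thus at least 18-fold higher than in microglia and 16.3-fold higher than in BMDM. Other targets were close. Srebf1 stood at 104, 87.7 and 97 CPM in hepatocytes, 97.5, 98.8 and 98.5 CPM in microglia and 101, 98.9 and 110.5 CPM in BMDM and was not called (edgeR adjusted p = 0.66 and 0.12), and Lpcat3, which makes polyunsaturated phospholipid, was not called either (-0.02 ± 0.07 and -0.11 ± 0.07). Without hepatocyte replicate 1 Srebf1 was called against BMDM (adjusted p = 0.036; 0.043 with a filter of 1 CPM in 3 libraries), as was Lpcat3 without BMDM replicate 2 (adjusted p = 0.038). On plain library totals both were called higher, by 0.30 to 0.37. Fasn, fatty acid synthase, stood at 59.7 ± 2.2, 101 ± 2.92 and 72.8 ± 12.3 CPM (-0.76 ± 0.08 and -0.29 ± 0.08), and its difference to BMDM turned to 0.13 on plain library totals and was not called without BMDM replicate 3 (adjusted p = 0.053) or in a fit of all 27 libraries (adjusted p = 0.11). Cyp7a1, an LXR target in rodent liver that starts bile acid synthesis, was counted 0, 0 and 2 times in hepatocytes, 1, 1 and 0 times in microglia and 0, 0 and 1 times in BMDM and could not be tested.

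**Figure D3:**
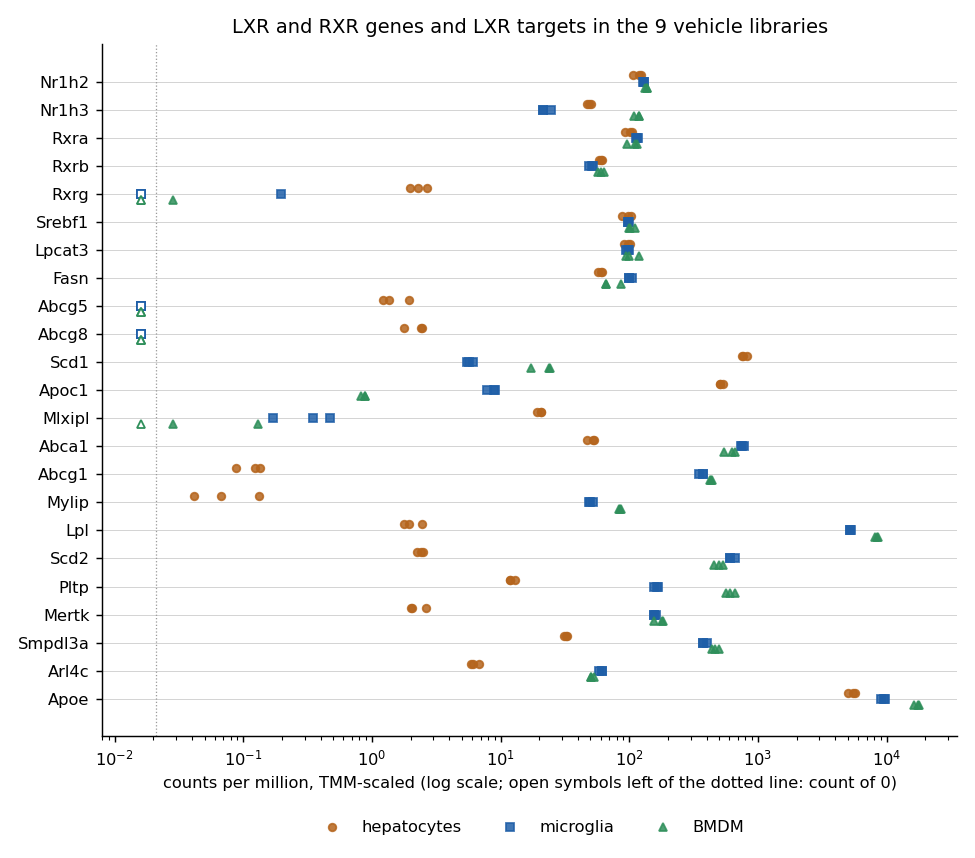
CPM (TMM-scaled, log axis) of LXR and RXR genes and LXR targets, 1 symbol per library; open symbols left of the dotted line stand for a count of 0. Nr1h2, Rxra, Srebf1 and Lpcat3 nearly coincide in the 3 cell types, Abcg5, Abcg8, Scd1, Apoc1 and Mlxipl lie to the right in hepatocytes, and the genes from Abca1 to Apoe lie to the left, with Abcg1 and Mylip nearest the floor.

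RefSeq has Abcg5 and Abcg8 start 109 bases apart on opposite strands, and the stretch between them is printed because the genes appeared together in hepatocytes. It holds the GATA box AGATAA 2 times, in capitals as its reverse complement TTATCT on the strand shown. Searched on both strands, 9.99% of all promoters of 250 bases held at least 1 such box, and 0.186% of all promoters held at least 2 within the 109 bases before the start.
Abcg5 and Abcg8, chr17:84683012-84683120, plus strand (GRCm38.p6, RefSeq): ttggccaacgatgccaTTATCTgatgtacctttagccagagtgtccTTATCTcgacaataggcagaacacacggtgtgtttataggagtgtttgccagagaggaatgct

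The machinery that holds and releases SREBP was close in level, with Insig2, Scap and Creb3l3 on the hepatocyte side and Rnf145 on the other. Of 16 genes 2 were at least 4-fold higher in each comparison, 12.5% against a background of 12.7% and 14.8%, and the medians were 0.13 and 0.14. Insig2, which retains SCAP in the endoplasmic reticulum (ENSMUSG00000003721; chromosome 1, 121304353 to 121332589), stood at 221, 231 and 214 CPM in hepatocytes, 33.7, 30.9 and 39.3 CPM in microglia and 39.6, 38.3 and 40.3 CPM in BMDM, 6.4-fold and 5.62-fold higher (2.68 ± 0.07 and 2.49 ± 0.07; edgeR adjusted p = 8.9e-20 and 3e-19). Its relative Insig1 stood at 71.2, 73.5 and 74.8 CPM, 65.8, 64.7 and 70.2 CPM and 64, 60.5 and 76.9 CPM in the same order and was not called (edgeR adjusted p = 0.12 and 0.13), although it was without BMDM replicate 3 (adjusted p = 0.043 and 0.0023), without a filter on low counts (0.029 and 0.048) and, by 0.52 and 0.54, on plain library totals. The log2 ratio of Insig2 over Insig1 in TPM was accordingly 1.47, 1.48 and 1.35 in hepatocytes, -1.13, -1.23 and -1.0 in microglia and -0.86, -0.83 and -1.1 in BMDM. Insig2 was thus the more abundant of the pair in each hepatocyte library and Insig1 in each macrophage library. Scap, the sterol sensor that escorts SREBP, stood at 135, 112 and 128 CPM in hepatocytes, 48.4, 51.1 and 53.5 CPM in microglia and 45.3, 51 and 53 CPM in BMDM (1.29 ± 0.07 and 1.33 ± 0.07; edgeR adjusted p = 2.3e-13 and 1.4e-13). Creb3l3, a liver factor released by the same proteases, stood at 173 ± 16.3 CPM against 4.27 ± 0.118 and 1.93 ± 0.608 CPM. The proteases Mbtps1 and Mbtps2 were close, with log2 differences of -0.03 and 0.20 for Mbtps1 and 0.12 and 0.15 for Mbtps2, although on plain library totals they were 0.36 to 0.62. Rnf145, a sterol-responsive ubiquitin ligase, was lower, at 19.95, 20.6 and 19 CPM against 47.5, 50.5 and 50.3 CPM in microglia and 96.8, 100.2 and 105 CPM in BMDM (-1.32 ± 0.07 and -2.34 ± 0.07; edgeR adjusted p = 1.2e-14 and 1.6e-19).

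Cholesterol synthesis genes mostly differed by less than 4-fold, in both directions. All 22 were tested and 18 were called in each comparison, beside 76.3% and 78.1% of all genes. Against microglia 13 were higher and 5 lower (17 and 2 on plain library totals), and against BMDM 8 and 10 (13 and 7). By the stricter rule 1 was at least 4-fold higher than in microglia (3 on plain library totals). Against BMDM 1 was at least 4-fold lower (0 on plain totals). The medians, over members on both sides of 0, were 0.23 and -0.08. Mvd, which closes the mevalonate steps, stood at 6.58, 6.79 and 8.54 CPM in hepatocytes, 23.5, 22 and 20.7 CPM in microglia and 35.7, 30.8 and 41.2 CPM in BMDM and was lower in hepatocytes (-1.59 ± 0.12 and -2.3 ± 0.12; edgeR adjusted p = 2.5e-11 and 2.5e-14). Hmgcs1, an early enzyme of the pathway and a known SREBP target (chromosome 13, 119690379 to 119708260), stood at 88.1, 101 and 98.2 CPM in hepatocytes and 89.7, 91.7 and 79.9 CPM in microglia, a difference that was not called (edgeR adjusted p = 0.052) but was without hepatocyte replicate 1, microglia replicate 2, or BMDM replicate 1 or 3 (adjusted p = 0.0082, 0.026, 0.043 and 0.041). It was also called with RLE size factors (0.018), by DESeq2 (0.013), without a filter on low counts (0.0092) and, at a larger difference of 0.525 and 0.452, on plain library totals and by limma on log2(TPM + 1). In BMDM it stood at 334, 316 and 323 CPM, above hepatocytes by more than the spread (-1.76 ± 0.06; edgeR adjusted p = 1.3e-17). Fdft1, which makes squalene, and Sc5d, of the last steps, were higher in hepatocytes (1.53 and 1.09, 1.63 and 1.26), with Fdft1 at 64.3 ± 2.8, 22.3 ± 1.04 and 30.1 ± 3.42 CPM. Tm7sf2 and Lbr encode reductases that act on the same bond, and they went opposite ways (1.81 ± 0.12 and 0.8 ± 0.11 for Tm7sf2, -0.56 ± 0.08 and -1.45 ± 0.08 for Lbr). Fdps, of which 27% of the exons overlap another gene model, was at 2.92 ± 0.295 TPM in hepatocytes, an uncertain level.

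**Figure D4:**
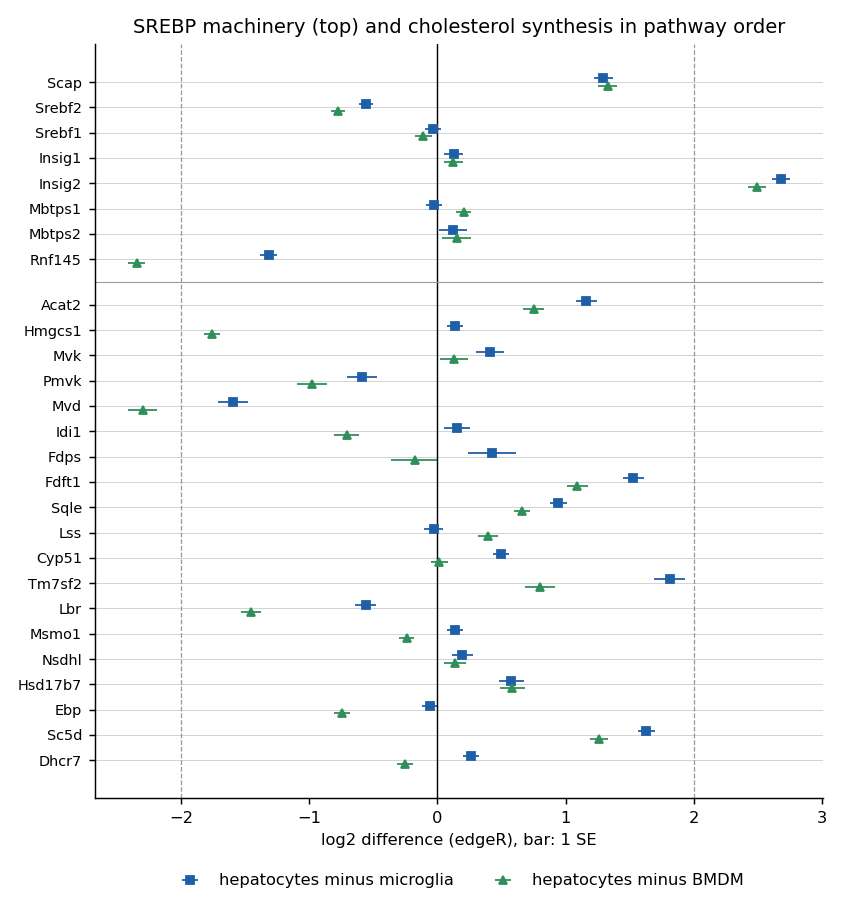
Log2 difference of hepatocytes minus microglia (squares) and minus BMDM (triangles) from edgeR with 1 SE, for the SREBP machinery above and cholesterol synthesis genes below in pathway order; dashed lines mark a 4-fold difference. Most points lie between the dashed lines, Insig2 lies past the right line in both comparisons, and Rnf145 and Mvd past the left line in the comparison with BMDM.

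The promoter of Hmgcs1 is shown because it carries the letters TCACCCCAC, in capitals, a sterol regulatory element of the kind that SREBP is known to bind, with 128 bases between it and the start. Searched on both strands, that motif stood in 0.496% of all promoter windows of 250 bases and in 5 of the 327 list genes, Abca3, Acsl1, Fabp6, Hmgcs1 and Pcyt1a.
Hmgcs1, chr13:119690101-119690350, plus strand (GRCm38.p6, RefSeq): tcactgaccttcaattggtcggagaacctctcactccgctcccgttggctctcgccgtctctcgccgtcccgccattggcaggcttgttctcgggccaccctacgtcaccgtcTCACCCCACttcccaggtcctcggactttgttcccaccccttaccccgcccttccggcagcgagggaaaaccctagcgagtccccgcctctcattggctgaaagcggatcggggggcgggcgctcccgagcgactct

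Receptors that clear lipoproteins from plasma went different ways, with Vldlr higher in hepatocytes and Lrp1 lower. Lrp1, a large clearance receptor, was lower in hepatocytes, at 78.9, 74 and 68.5 CPM against 445, 442 and 451 CPM in microglia and 749.5, 817 and 837 CPM in BMDM (-2.59 ± 0.06 and -3.44 ± 0.06; edgeR adjusted p = 3e-21 and 2.3e-23). Its chaperone Lrpap1 and the sorting protein Snx17 were lower too (-2.74 and -2.31, -2.59 and -2.64). Vldlr was higher, at 6.88 ± 0.0842 CPM against 0.692 ± 0.201 and 0.0587 ± 0.0566 CPM. Of 13 tested genes 2 were at least 4-fold higher and 4 at least 4-fold lower in each comparison. By this rule 12.7% and 14.8% of all genes were higher, near the share here, and 16.3% and 16.1% lower. Scarb1, the receptor for high-density lipoprotein, was close (0.16 ± 0.06 and -0.4 ± 0.06), and the second value turned to 0.02 on plain library totals. The first was not called without hepatocyte replicate 1 or 3 or microglia replicate 2 (adjusted p = 0.056 to 0.082).

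Scavenger receptors, through which macrophages take up modified lipoprotein, were mostly lower in hepatocytes. Of 14 tested genes 11 were at least 4-fold lower than in microglia and 10 than in BMDM, and none was 4-fold higher (medians -4.74 and -5.85, or -3.32 and -5.17 with bounds). Cd36, which also takes up fatty acids (ENSMUSG00000002944; chromosome 5, 17781690 to 17888801), stood at 3.54, 3.0 and 4.17 CPM in hepatocytes, 2029, 1840.5 and 1880.3 CPM in microglia and 4491, 5122 and 5123 CPM in BMDM (-9.07 ± 0.10 and -10.43 ± 0.10; edgeR adjusted p = 1.7e-26 and 3.2e-27). Msr1 was counted 36, 18 and 26 times in hepatocytes and stood at 1758 ± 9.94 CPM in microglia and 665 ± 35.2 CPM in BMDM. Marco set the macrophages apart from each other, at 312 ± 4.67 CPM in microglia and 12.4 ± 5.5 CPM in BMDM, with 0.284 ± 0.14 CPM in hepatocytes. Mrc1, the mannose receptor, stood at 0.753 ± 0.229, 301 ± 18.4 and 253 ± 11.7 CPM and Stab1 at 4.81 ± 0.616, 218 ± 4.31 and 237 ± 22.6 CPM, whereas Cd163 and Olr1, at 0 in hepatocytes, were low everywhere. Cd68 was the most abundant of the list in hepatocytes at 779 ± 31.8 TPM, and stood at 305, 273 and 288 CPM against 2028, 2056 and 2109 CPM and 1766, 1879 and 2024 CPM (-2.84 ± 0.06 and -2.71 ± 0.06). Scarb2, a lysosomal membrane receptor, stood at 201 ± 1.77, 159.7 ± 2.76 and 163 ± 8.06 CPM.

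The balance of the cholesterol-esterifying enzymes differed. Soat1, the esterifying enzyme of most tissues (ENSMUSG00000026600; chromosome 1, 156424525 to 156474331), was counted 7, 4 and 7 times in the hepatocyte libraries and stood at 1063, 1037 and 1028 CPM in microglia and 864, 889 and 918 CPM in BMDM (-12.94 ± 0.10 and -12.71 ± 0.10; edgeR adjusted p = 2.7e-29 and 4e-29). Soat2, the enzyme of liver and intestine (ENSMUSG00000023045; chromosome 15, 102150526 to 102163469), stood at 11.7, 11.2 and 11.6 CPM in hepatocytes, 7.0, 8.55 and 8.43 CPM in microglia and 0.198, 0.13 and 0.347 CPM in BMDM. It was far above BMDM but close to microglia (5.66 ± 0.24 and 0.53 ± 0.14; edgeR adjusted p = 2.8e-16 and 0.0021). Per transcript length, log2 of Soat2 over Soat1 was 8.49, 9.14 and 8.37 in hepatocytes, -5.1, -4.78 and -4.79 in microglia and -9.95, -10.59 and -9.22 in BMDM. The ratio thus had opposite signs in hepatocytes and in both macrophages in every library.

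Lipa and Npc2, which act on lipoprotein cholesterol in lysosomes, were lower in hepatocytes. Lipa, the acid lipase that frees cholesterol from lipoprotein, stood at 135, 138 and 134 CPM in hepatocytes, 2792, 2710.4 and 2748 CPM in microglia and 3898, 4182 and 4346 CPM in BMDM (-4.34 ± 0.06 and -4.93 ± 0.06; edgeR adjusted p = 5.9e-26 and 1e-26). Npc2, which hands the sterol to the membrane protein NPC1, was lower by a smaller factor (-3.36 ± 0.05 and -3.41 ± 0.05), while Npc1 differed by less (-0.4 ± 0.06 and -0.96 ± 0.06, the first -0.02 on plain library totals). Nceh1, which hydrolyses stored ester in macrophages, stood at 35.4 ± 1.97, 526 ± 17.3 and 633 ± 17.4 CPM. Hydrolases of the liver were the reverse. Ces1d stood at 40.1, 42.5 and 42.1 CPM and Ces1g at 7.65, 7.47 and 8.52 CPM in hepatocytes, both with a count of 0 in all 6 macrophage libraries, and both belong to a cluster of close copies. Among the sterol transfer proteins Gramd1b was lower (-4.79 and -3.94) and its relative Gramd1c higher (4.18 and 5.05), and Osbpl8 was lower (-4.82 and -4.09). Of 23 genes 3 were at least 4-fold higher than in microglia (5 on plain library totals) and 4 than in BMDM, and 6 at least 4-fold lower in each. By this rule 12.7% and 14.8% of all genes were higher, near the share here, and 16.3% and 16.1% lower. Scp2, a sterol carrier, and Tspo, of the outer mitochondrial membrane, were the most abundant in hepatocytes (416 ± 10.2 and 1212 ± 55.4 TPM).

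Sterol and lipid transporters of the ABC family lay on both sides. Of 18 tested genes 9 were at least 4-fold higher than in microglia and 8 than in BMDM, with 4 lower in each, among them Abca1, Abcg1 and Abca9. Abcc2, the canalicular export pump, stood at 134, 146 and 153 CPM in hepatocytes, 0.554, 0.141 and 0.0291 CPM in microglia and 0.0847, 0.0652 and 0.189 CPM in BMDM. Abcg2, a pump of drugs and porphyrins, stood at 148 ± 11.3, 21.9 ± 1.27 and 14.2 ± 1.12 CPM. Abca6 stood at 31.8 ± 1.67, 1.19 ± 0.126 and 2.01 ± 0.409 CPM (4.74 ± 0.15 and 3.99 ± 0.14; edgeR adjusted p = 1.3e-18 and 9.9e-18). Its neighbour on the chromosome, Abca9, was reversed at 0.436 ± 0.129, 90.9 ± 2.94 and 124 ± 8.62 CPM (-7.69 ± 0.12 and -8.13 ± 0.12; edgeR adjusted p = 1.5e-24 and 4.2e-25). Abcd3, a peroxisomal member, was close (0.35 and 0.13).

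**Figure D5:**
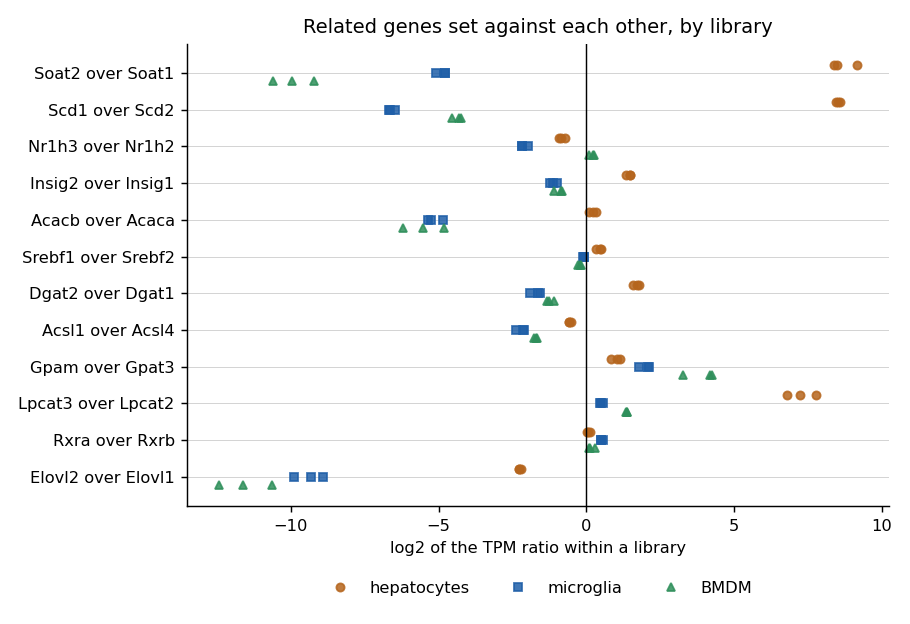
Log2 ratio of the TPM of related genes within each library, 1 symbol per library, for the 12 pairs with a count above 0 in all 9 libraries. Hepatocytes lie right of 0 and both macrophages left of it for Soat2 over Soat1, Scd1 over Scd2, Insig2 over Insig1, Acacb over Acaca, Dgat2 over Dgat1 and Srebf1 over Srebf2, while Rxra over Rxrb stays near 0 in all.

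Most bile acid genes that could be tested were higher in hepatocytes. Of 25 genes 22 were tested, and 16 were at least 4-fold higher in each comparison and none 4-fold lower (medians 8.77 and 6.80, or 5.03 and 5.47 with bounds), while 6 were within 4-fold or not called in each. Cyp7a1, Hsd3b7 and Gpbar1 were not tested. Cyp8b1, which sets the share of cholic acid and whose promoter is printed above, stood at 6.4, 6.22 and 7.74 CPM in hepatocytes, at least 81.1-fold above microglia and 73.5-fold above BMDM. Slc27a5, which activates bile acids for conjugation, stood at 165 ± 5.76 TPM. Baat, which conjugates them, stood at 4.14 ± 0.973 TPM, the uptake carrier Slc10a1 at 7.72 ± 0.281 TPM and the export pump Abcb11 at 2.06 ± 0.0959 TPM. Slco1a1, another uptake carrier, stood at 19.5 ± 1.68 CPM in hepatocytes and at 0 in the macrophages. Nr1h4, the bile acid receptor FXR, stood at 13.3, 13.9 and 13.1 CPM in hepatocytes, with counts of 0, 1 and 0 in microglia and 0, 2 and 0 in BMDM.

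Fatty acid synthesis genes included enzymes at close levels and others that were far higher in hepatocytes. Acly, which supplies acetyl-CoA, stood at 298 ± 1.74, 320.2 ± 8.36 and 218 ± 26.9 CPM in hepatocytes, microglia and BMDM and was not called against microglia (edgeR adjusted p = 0.15), whereas it was called higher on plain library totals (0.28) and lower in a fit of the 6 libraries compared (-0.12; adjusted p = 0.027). Acaca, the cytosolic carboxylase, stood at 11.3 ± 0.743, 18.2 ± 1.43 and 13.6 ± 0.766 CPM. Acacb, the mitochondrial form, stood at 8.19, 6.83 and 7.0 CPM in hepatocytes, 0.238, 0.339 and 0.291 CPM in microglia and 0.169, 0.0978 and 0.284 CPM in BMDM (4.66 ± 0.27 and 5.29 ± 0.30; edgeR adjusted p = 2e-13 and 8.3e-14). Me1, malic enzyme, was higher at 213, 233 and 232 CPM against 29, 22.7 and 25.1 CPM and 14.3, 15.1 and 17.2 CPM (3.14 ± 0.08 and 3.87 ± 0.09; edgeR adjusted p = 1.3e-19 and 7.1e-21), and Thrsp, a lipogenic regulator of liver, stood at 28.1 ± 0.879 CPM against 0.0886 ± 0.13 and 0.0482 ± 0.0583 CPM. Of 14 tested genes 5 were at least 4-fold higher than in microglia and 4 than in BMDM, with none and 1 lower. The gene lower than in BMDM was Oxsm, of mitochondrial fatty acid synthesis (-2.11 ± 0.14), and it did not reach 4-fold without hepatocyte replicate 1 or on plain library totals.

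The desaturases Scd1 and Scd2 changed places between the cell types. Scd2, the form of brain and macrophages (ENSMUSG00000025203; chromosome 19, 44293674 to 44306864), stood at 2.41, 2.26 and 2.5 CPM in hepatocytes, 661, 607 and 611 CPM in microglia and 499, 453 and 536 CPM in BMDM (-8.03 ± 0.09 and -7.7 ± 0.09; edgeR adjusted p = 3.1e-27 and 6.1e-27), the mirror of Scd1 above. Within a library, log2 of Scd1 over Scd2 in TPM was 8.44, 8.56 and 8.51 in hepatocytes, -6.69, -6.63 and -6.48 in microglia and -4.24, -4.56 and -4.3 in BMDM. The Scd genes lie side by side and are close copies, so reads shared between them could blur each level. Elovl2, which lengthens polyunsaturated fatty acids, stood at 43, 39.4 and 42.7 CPM in hepatocytes, 0.528, 0.367 and 0.726 CPM in microglia and 0.226, 0.0652 and 0.126 CPM in BMDM, and Fads2 was higher by less (2.27 ± 0.09 and 1.73 ± 0.09). Fads1 was not called in either comparison (edgeR adjusted p = 0.31 and 0.47) but was higher by 0.33 and 0.37 on plain library totals. Elovl4 stood at 0.329, 0.394 and 0.223 CPM in hepatocytes, 1.64, 0.367 and 1.13 CPM in microglia and 0 in all 3 BMDM libraries, at least 3.41-fold lower there. Elovl7 stood at 81.3 ± 3.07, 2.35 ± 0.482 and 0.38 ± 0.0426 CPM. Hacd4, a dehydratase of elongation, was on the macrophage side at 97.8 ± 1.5 and 181 ± 4.42 CPM against 0.218 ± 0.104 CPM. Of 20 genes 8 were at least 4-fold higher and 2, Scd2 and Hacd4, at least 4-fold lower in each comparison. By this rule 12.7% and 14.8% of all genes were higher, and 16.3% and 16.1% lower, the latter above the share here.

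Most fatty acid oxidation genes were higher in hepatocytes. Of 30 genes 29 were tested, and 24 were called higher and 4 lower than in microglia, 21 and 7 than in BMDM. By the stricter rule 12 were at least 4-fold higher than in microglia and 10 than in BMDM, and none was 4-fold lower (medians 1.37 and 1.10). Acaa2, the mitochondrial thiolase, stood at 501, 463 and 481 CPM, 67.8, 69.5 and 65.8 CPM and 124, 126 and 135 CPM in hepatocytes, microglia and BMDM (2.83 ± 0.06 and 1.91 ± 0.05; edgeR adjusted p = 1.8e-22 and 1.6e-19). Cpt1a, which gates entry of fatty acids into mitochondria, was slightly lower in hepatocytes, at 96.9 ± 5.0, 130.3 ± 4.92 and 167 ± 20.5 CPM (-0.43 ± 0.07 and -0.78 ± 0.07), but on plain library totals the difference to microglia was -0.04. Vnn1, a pantetheinase and known target of that pathway's receptor, stood at 39.2 ± 2.62 CPM and Pdk4, which spares glucose, at 48.5 ± 3.47 CPM in hepatocytes, with at most 5 counts in all in either macrophage. Ppara, the receptor that drives this programme, stood at 8.17, 7.2 and 8.65 CPM in hepatocytes, 0.0264, 0 and 0.116 CPM in microglia and 0.169, 0.0326 and 0 CPM in BMDM (7.33 ± 0.44 and 6.75 ± 0.42; edgeR adjusted p = 8.7e-13 and 1.6e-12). Its relative Pparg, the receptor of fat cells and lipid-laden macrophages (chromosome 6, 115360951 to 115490399), was reversed at 11, 11.7 and 12 CPM, 49.5, 51.6 and 51 CPM and 146, 152 and 159 CPM (-2.13 ± 0.07 and -3.71 ± 0.07; edgeR adjusted p = 1.1e-18 and 2.8e-23). Even so, Pparg was above Ppara in TPM within hepatocytes (13.3 ± 0.763 against 7.08 ± 0.616 TPM). Among the other nuclear receptors Vdr, the vitamin D receptor, was lower, at 0.115 ± 0.0917, 1.63 ± 0.655 and 1.66 ± 0.216 CPM.

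Binding proteins for fatty acids differed by form. Fabp1, the liver form (ENSMUSG00000054422; chromosome 6, 71199827 to 71205023), stood at 36, 37.7 and 39.4 CPM in hepatocytes and 0 in all 6 macrophage libraries, at least 451-fold and 408-fold lower there. Fabp5, the macrophage and skin form, stood at 15.4, 14.9 and 17 CPM in hepatocytes, 1164, 1189 and 1258 CPM in microglia and 1281, 1236 and 1368 CPM in BMDM (-6.26 ± 0.07 and -6.36 ± 0.07; edgeR adjusted p = 5e-27 and 4.2e-27). Fabp3, Fabp4 and Fabp7 were lower in hepatocytes as well, with Fabp4 at 1.8 ± 0.417, 185 ± 15.7 and 233 ± 21.8 CPM. The acyl-CoA synthases Slc27a2 and Slc27a5 were higher, and Slc27a1 was lower (-1.82 ± 0.07 and -1.8 ± 0.07). Of 18 tested uptake and binding genes 6 were at least 4-fold higher and 5 at least 4-fold lower in each comparison. Got2, the mitochondrial aminotransferase also described at the cell surface, was higher (2.5 ± 0.07 and 2.35 ± 0.07).

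Lipid droplet genes went both ways, and of 18 tested 11 were called higher and 5 lower than in microglia, 10 and 5 than in BMDM. Plin2, the coat of droplets in most cells, stood at 2413, 2288 and 2376 CPM in hepatocytes, 1777, 1868 and 1924 CPM in microglia and 1427, 1483 and 1542 CPM in BMDM, high in all (0.35 ± 0.05 and 0.67 ± 0.05; edgeR adjusted p = 1.2e-06 and 1.9e-11). Plin5, the coat of oxidative tissues, stood at 13.9, 12.1 and 13 CPM in hepatocytes, with counts of 1, 0 and 1 in microglia and 0, 4 and 2 in BMDM. Hsd17b13, a droplet protein of liver, stood at 75.3 ± 3.77 CPM in hepatocytes, with counts of 1, 1 and 0 in microglia and of 3, 0 and 1 in BMDM, and the fusion proteins Cidea and Cidec were also high (6.51 ± 0.706 and 12.6 ± 0.821 TPM). Mgll, which releases the last fatty acid of a triglyceride, was at least 4-fold lower, at 6.85, 5.52 and 7.16 CPM against 106, 97.9 and 97 CPM in microglia and 201, 198 and 183 CPM in BMDM (-3.94 ± 0.08 and -4.9 ± 0.08; edgeR adjusted p = 5.1e-22 and 1e-23). By the 4-fold rule 8 were higher than in microglia and 9 than in BMDM, and 1 was lower in each.

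In glycerolipid synthesis Dgat2, which closes triglyceride synthesis, stood at 93.9, 81.6 and 93.8 CPM in hepatocytes, 6.31, 5.73 and 7.32 CPM in microglia and 11.8, 11.4 and 14.2 CPM in BMDM (3.8 ± 0.10 and 2.84 ± 0.10; edgeR adjusted p = 1.1e-19 and 7.2e-18), while the unrelated enzyme Dgat1 was close (0.42 ± 0.08 and -0.08 ± 0.08, the second 0.34 on plain library totals). The log2 ratio of Dgat2 over Dgat1 in TPM was 1.71, 1.59 and 1.77 in hepatocytes, -1.63, -1.9 and -1.56 in microglia and -1.33, -1.27 and -1.1 in BMDM. Lpin3, a phosphatidate phosphatase, stood at 27.6 ± 1.52 CPM against 0.0176 ± 0.0305 and 0.00941 ± 0.0163 CPM. Pemt, the liver route to phosphatidylcholine, was higher (3.6 ± 0.18 and 3.56 ± 0.18; edgeR adjusted p = 6.8e-15 and 9.2e-15). The acyltransferases Lpcat1, Lpcat2 and Agpat4 were at least 4-fold lower in each comparison, with Lpcat2 at 0.684 ± 0.239, 71.9 ± 1.1 and 42.3 ± 5.54 CPM and Agpat4 at 0.0792 ± 0.046, 20.9 ± 1.49 and 21.8 ± 2.25 CPM. Of 28 genes 8 were at least 4-fold higher and these 3 at least 4-fold lower in each comparison. By this rule 12.7% and 14.8% of all genes were higher, and 16.3% and 16.1% lower, the latter above the share here.

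Over all genes, the largest differences among those with at least 10 CPM in every library of the higher group are named next. Gc, the vitamin D-binding protein, stood at 5652, 5628 and 5517 CPM in hepatocytes, against a count of 1, 0 and 0 in microglia and 0, 0 and 0 in BMDM. Mup20 and Mup3 of the major urinary protein cluster, whose copies are nearly identical, and Serpina3k and Serpina1b of the serpin clusters were on the same side. So were Kng1, Mbl2, Ces3a, Vtn, Ambp, Alb, Apoa1, Fgb and Tm4sf4, a membrane protein of liver and gut that reached 5344 ± 50.4 TPM. On the other side Itgax, an integrin of myeloid cells, stood at 170, 159 and 162 CPM in microglia and 309.8, 387 and 410.5 CPM in BMDM and at 0 in all 3 hepatocyte libraries, at least 2525-fold and 5699-fold lower. Atp6v0d2, a subunit of the lysosomal proton pump, stood at 1126 ± 36.1 and 1797 ± 55.5 CPM and was counted 2, 0 and 0 times in hepatocytes. Gcnt1, Cd200r1, Hvcn1 and Dcstamp were among the 10 in both comparisons. Mmp8, Pf4, Flrt2 and Clec5a were among them against microglia, and Ighm, an immunoglobulin gene of B cells, Ms4a4a, Alox5ap and Slc8a1 against BMDM.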

How the data were processed

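Polyadenylated RNA of 27 libraries was primed with oligo-dT and amplified with an ultra-low-input kit, per the labels' protocols. The authors used STAR 2.5.1a, featureCounts 1.4.6-p5 and the mouse build GRCm38, per the submitters' processing notes. Which annotation release was counted, whether strand was used and how reads matching several genes were handled is not given in the sources used here. The deposited counts are whole numbers per gene, and the deposited TPM and FPKM are the authors' values, used as given. The series table and the library files held the same counts (0 differed). Of its 55487 gene identifiers 168 stood on several identical lines, kept once. Of the 55141 found in GENCODE M21, 99.42% had the same span there. Exon overlaps are the percent of a gene's exonic bases under exons of other genes on either strand, by the coordinates deposited with the counts.

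The 9 vehicle libraries were grouped by their labels and fitted together in edgeR 4.0.16 (R 4.3.3), with the default filter on low counts, TMM scaling, robust quasi-likelihood tests (two-sided) and Benjamini-Hochberg adjustment over 17466 genes. The common biological coefficient of variation was 0.0766 with 6 residual degrees of freedom. CPM were computed from the deposited counts. Counts were also simulated for the comparison with microglia, over 16892 genes. Of these 200, all above 1 CPM, were changed in both directions, and the rest had the same mean in all cell types. Of the genes changed 2-fold 96 of 97 were recovered and of those changed 4-fold 103 of 103, with 17 calls among unchanged genes. In the data most genes were called, so this run checks the code and not the scaling between cell types. The 26 pathway and 14 marker lists and the related pairs were chosen with earlier results of these data known. Genes named are mainly the 4 largest differences of each list and comparison, members opposite to their list, both genes of each pair and the 10 largest over all genes, and other members are named for their known role. Some members count towards their list and are not reported singly here. A gene at a count of 0 in the lower group is given as a bound against 3 counts per library. Alternatives used limma 3.58.1, DESeq2 1.42.0, other scalings, filters and samples, a replicate block and leaving out each library. The 18 libraries treated with the 2 compounds entered only the alternative fit of all 27.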

Additional observations from a re-analysis of the deposited data

How the results depend on the processing

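The numbers of genes called stayed within 1.5 times of the values above under every alternative run except limma on log2(TPM + 1), by which 2845 genes passed the 4-fold rule against microglia and 3125 against BMDM. The added 1 shrinks the fold of low genes by construction. Leaving out 1 library at a time gave 13022 to 13717 calls against microglia and 13347 to 13896 against BMDM, or 5293 to 5393 and 5608 to 5679 with the 4-fold rule. Each such fit pools the spread over all groups. With the replicate number as a block, 13177 and 13482 genes were called (5087 and 5399 with the 4-fold rule). Single genes were checked for a part of those named, with at most 170 values per alternative over both comparisons. No call among them changed with this block. Same-numbered libraries deviated together with r between -0.27 and 0.32, so the numbers were not taken to pair them. Among the checked genes called above, the directions that turned on plain library totals were those of Nr1h2 (0.24 and 0.19), Fasn (0.13) and Scarb1 (0.018) against BMDM, and Tcf7l2 (0.12) against microglia. By limma on log2(TPM + 1) the same held for Nr1h2 (0.17 and 0.20), Fasn (0.14), Scarb1 (0.03) and Tcf7l2 (0.043). Differences that were not called above, such as those of Lpcat3, could change sign as well and are not in this list. Of 3393 values of the genes checked under the alternatives, 3307 kept their side of the threshold and, where called above, their direction. Of 2080 counts for the gene lists, 59 moved by more than 1.5 times. The cause of these changes was not tested. DESeq2 gave no adjusted p for Ch25h and Hnf4a, which then have no value there. Leaving out 1 library for a level, or FPKM in place of TPM for a ratio, cannot move the value by more than the replicate spread and says nothing of stability. With 3 counts as the floor, levels under about 0.09 CPM are not detectable at this depth.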

Other observations

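Some genes used as markers of other cell types were counted in these hepatocytes. Sall1, a transcription factor used as a microglia marker, stood at 66.2, 66.2 and 65.8 CPM in hepatocytes, 2.38, 3.16 and 2.27 CPM in microglia and 0 in all 3 BMDM libraries. Sox9, a marker of bile duct cells and of astrocytes, stood at 148, 142 and 144 CPM in hepatocytes, 0.845, 1.04 and 1.39 CPM in microglia and 0 in BMDM, while Krt19 and Epcam, keratin and adhesion genes of bile duct cells, stood at 7.05 ± 0.944 and 1.66 ± 0.109 CPM in hepatocytes. Aldh1l1, an enzyme of folate metabolism used as an astrocyte marker, stood at 102, 97.7 and 104 CPM in hepatocytes, 33.3, 33.5 and 32.9 CPM in microglia and 22.2, 21 and 22.2 CPM in BMDM. Spp1, osteopontin, stood at 372, 381 and 350.1 CPM in hepatocytes, 9988, 10099 and 10998 CPM in microglia and 676, 643 and 714 CPM in BMDM.

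Genes known from cells other than macrophages were counted in the macrophage cultures, and microglia and BMDM were not tested against each other. Olig1 and Pdgfra, genes of oligodendrocyte precursors, stood at 10.5 ± 1.14 and 6.1 ± 1.09 CPM in microglia, against 1.06 ± 0.32 and 0.0946 ± 0.164 CPM in BMDM and 0.0216 ± 0.000906 and 0.0581 ± 0.027 CPM in hepatocytes. S100a8 and S100a9, genes of neutrophils and their precursors, stood at 24.2, 21.3 and 18.6 CPM and 23.3, 19 and 19 CPM in BMDM. S100a8 stood at 3.01, 2.68 and 2.53 CPM in microglia and 0 in hepatocytes, and S100a9 at 0 in the other 6 libraries. Ighm, an immunoglobulin gene of B cells, stood at 124, 122 and 132 CPM in BMDM, 0.634, 0.169 and 0.407 CPM in microglia and 0 in hepatocytes. The part of such cells in the differences between cell types was not tested.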
